A study of Mus musculus with 12 samples.

Results

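The 45 genes described here encode the proteins that license origins of replication and the proteins that work at the replication fork. They were chosen by gene symbol, and all 45 symbols were found among the 24881 symbols of the deposited table. Each of them had a mean of at least 0.5 FPKM (fragments per kilobase of transcript, scaled to the mapped fragments) over the 8 libraries and was therefore among the 12572 genes tested. They fall into 9 groups by role, from the origin recognition complex to ribonucleotide reductase.

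Origins are licensed in G1 phase, when the origin recognition complex, CDC6 and CDT1 load the MCM2-7 helicase onto DNA in an inactive form, and geminin blocks CDT1 once S phase has begun. The kinase CDC7 with its activating subunit DBF4, together with CDC45 and the GINS complex, then turns the loaded helicase into an active fork. At the fork, primase and polymerase alpha lay down primers, the clamp loader RFC places PCNA on them, and polymerases delta and epsilon extend them. Many of these genes are known targets of E2F transcription factors, which proteins of the RB family hold in check in G1. Mouse ESCs are known for a short G1 phase, which is longer in 2i than in serum.

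RNA-seq was carried out on R1 mouse ESCs sorted in G1 phase, in 4 groups of 2 libraries each: WT ESCs in 2i, P53-/- ESCs in 2i, WT ESCs in serum and P53-/- ESCs in serum. The comparisons ask what the loss of P53 changes in each culture, and how cells in 2i differ from cells in serum. 2i is a medium with inhibitors of the kinases MEK and GSK3, and serum is the conventional medium. All 4 groups carry the FUCCI reporters, fluorescent proteins fused to parts of CDT1 and geminin that mark the cell cycle phases and were used for the sort. Whether reads from the reporters were counted for *Cdt1* or *Gmnn* was not tested. *Trp53* was cut with CRISPR-Cas9, and single cells were grown into clones. The study used 2 P53-/- clones for RNA-seq, but the table does not say which library came from which clone, so that clone and library cannot be told apart. Libraries are numbered by the order of their columns. Whether the WT libraries came from separate cultures is not given in the sources used here, so the p values measure only the spread between these libraries, which may be technical. In bulk RNA, fewer cells with a transcript and less transcript per cell cannot be told apart.

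The table gives no counts. From the steps between low values, depth was estimated, up to a factor common to all libraries, at 5200000 to 13000000 fragments per library. The lowest estimate behind a value of the 45 genes was about 120 fragments (*Rfc4*), and the median was about 1200. These 2 estimates took the longest annotated transcript of each gene, so that they may be too high. Of the FPKM sum of a library, 92.4% to 98.7% came from small RNA genes. Without these genes the sum ran from 471000 to 508000 in the 2i libraries and from 510000 to 1020000 in the serum libraries. Median-ratio scaling factors lay between 0.987 and 1.028. *Trp53* ran from 1.88 to 7.25 FPKM in P53-/- 2i and from 26.8 to 33.7 in WT 2i, and from 3.68 to 16.8 in P53-/- serum and from 75.1 to 77.6 in WT serum. The summed FPKM of 8 ESC markers lay between 3540 and 4490 in every library, with *Dppa5a* alone at 1400 to 2690. In P53-/- 2i against WT 2i 7 of the 8 had log2 fold changes below 0, 5 of them with libraries that did not overlap (24.7% of all genes tested). *Klf4*, a pluripotency factor, fell by 0.96 on the log2 scale (adjusted p = 0.00782 in limma, a linear model fitted to all genes tested). The summed FPKM of 9 fibroblast markers lay between 0.761 and 11.1, with *Col3a1* and *Postn* at 0 in all 8 libraries. *Thy1*, the 1 fibroblast marker tested, fell 11.6-fold in WT 2i against WT serum. The sums of primitive endoderm, mesoderm and neural markers did not exceed 4.19, 13.5 and 41.1. Among these markers *Tubb3* fell in P53-/- 2i (−0.61, adjusted p = 0.054 in limma), and in WT 2i against WT serum *Gata4*, *T* and *Gsc* (listed at 0 in WT serum) rose and *Nes* fell.

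The promoters are shown first, because E2F and CCAAT words are known features of cell cycle promoters. RefSeq promoter windows (GRCm38.p6, 250 bases before to 50 bases after the transcription start) were matched to 37 of the 45 genes, all except *Gmnn*, *Mcm4*, *Gins1*, *Gins2*, *Gins4*, *Prim2*, *Pole* and *Rfc2*. At least 1 of 4 E2F words (TTTCCCGC, TTTGGCGC, TTTCGCGC or TTTGCCGC, on either strand) occurred in 15 of the 37 genes (40.5%), compared with 4.98% of the 9765 tested genes with a window and 2.6% of all 27025 genes with a window. CCAAT, on either strand, occurred in 23 of the 37 genes (62.2%), compared with 44.0% and 41.1%. The 200 bases upstream of the start are printed 5′ to 3′ on the gene's own strand for *Mcm6* (chr1:128359706-128359905, minus strand) and *Mcm5* (chr8:75109309-75109508, plus strand), which hold 3 and 2 E2F words. They are also printed for *Rfc4* (chr16:23127731-23127930, minus strand), *Dbf4* (chr5:8422717-8422916, minus strand) and *Rrm2* (chr12:24708054-24708253, plus strand), 3 genes with large differences between the groups. Capitals mark E2F words and CCAAT on either strand, so that ATTGG is CCAAT read on the other strand, and overlapping words run together.
Mcm6: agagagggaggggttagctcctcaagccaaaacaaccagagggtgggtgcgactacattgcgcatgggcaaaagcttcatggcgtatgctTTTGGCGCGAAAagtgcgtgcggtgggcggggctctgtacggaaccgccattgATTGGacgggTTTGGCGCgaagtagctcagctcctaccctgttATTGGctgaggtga
Mcm5: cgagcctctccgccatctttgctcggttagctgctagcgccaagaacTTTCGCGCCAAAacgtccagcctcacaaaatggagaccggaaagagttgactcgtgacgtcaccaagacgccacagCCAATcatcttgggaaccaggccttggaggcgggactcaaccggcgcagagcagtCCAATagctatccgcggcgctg
Rfc4: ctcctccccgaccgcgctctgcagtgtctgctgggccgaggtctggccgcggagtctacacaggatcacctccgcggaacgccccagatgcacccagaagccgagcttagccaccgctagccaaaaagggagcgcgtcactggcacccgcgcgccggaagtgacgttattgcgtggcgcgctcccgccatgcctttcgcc
Dbf4: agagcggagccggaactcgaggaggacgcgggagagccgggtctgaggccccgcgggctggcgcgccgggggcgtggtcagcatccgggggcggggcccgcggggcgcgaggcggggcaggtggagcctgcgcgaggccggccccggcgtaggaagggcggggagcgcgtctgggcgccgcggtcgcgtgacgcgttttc
Rrm2: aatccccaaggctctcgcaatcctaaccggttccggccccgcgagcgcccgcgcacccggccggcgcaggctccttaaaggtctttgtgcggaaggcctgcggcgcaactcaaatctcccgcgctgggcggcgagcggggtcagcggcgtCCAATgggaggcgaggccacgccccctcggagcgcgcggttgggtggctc
No E2F word was found in the *Rfc4*, *Dbf4* and *Rrm2* stretches, and *Rrm2* held 1 CCAAT. The 15 genes with an E2F word had a median log2 fold change of 0.18 in P53-/- against WT 2i, and the 22 without had 0.34. In WT 2i against WT serum the medians were −0.14 and −0.05, with 4 of the 15 and 8 of the 22 called lower and 0 and 1 called higher. Among all genes tested, 28.6% were called lower and 27.2% higher there. A matching word is a description of the window and not a binding site.

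All 45 genes were well expressed. Single values ran from 8.27 FPKM for *Gins3* to 315 for *Rrm2*, none was at 0, and 44 of the 45 genes were above 10 FPKM in every library. The summed FPKM of the 45 genes was 2970 to 3070 in WT 2i, below the 3370 to 3570 of P53-/- 2i, the 3560 to 3580 of WT serum and the 3510 to 3560 of P53-/- serum. The libraries of a group lay close together, with a median SD on the log2 scale of 0.121 for WT and 0.087 for P53-/- in 2i, and of 0.0508 for WT and 0.0902 for P53-/- in serum. Over all genes tested these SDs were 0.178, 0.143, 0.106 and 0.159. The ratio of the highest to the lowest of the 4 group means had a median of 1.55, and it was under 1.5 for 19 genes and over 2 for 12. The order of the group means was not shared by all members: P53-/- serum, WT serum, P53-/- 2i and WT 2i, from high to low, was the order of 12 genes, and P53-/- 2i, WT 2i, WT serum and P53-/- serum was that of 8.

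**Figure D1:**
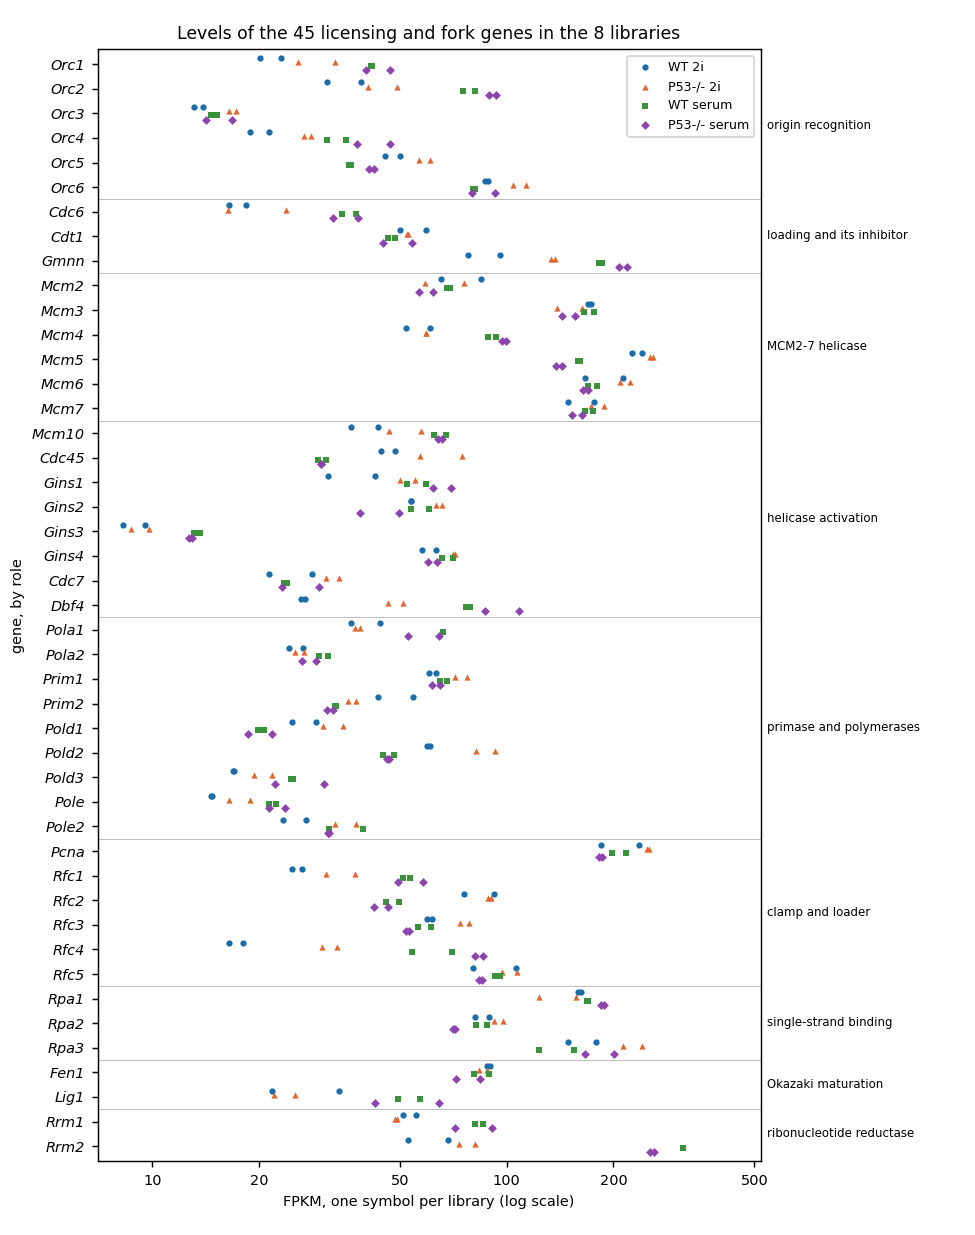
FPKM (log axis) of the 45 genes in the 8 libraries, grouped by role, with 1 symbol per library and a color and shape per group. All values lie between 8.27 and 315 FPKM, and *Rfc4*, *Dbf4* and *Rrm2* spread farthest between the groups, with the serum libraries on the right.

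In 2i, 3 of the 45 genes rose in P53-/- (*Dbf4*, *Rfc4* and *Gmnn*) and none fell. Calls needed an adjusted p under 0.1 in limma and more than a 1.5-fold change, and 4.36% of all genes tested were called higher, 5.97% lower and 10.3% in either direction. Log2 fold changes were mostly small and above 0: 36 of the 45 genes lay above 0 (80.0%, compared with 53% of all genes), with a median of 0.26 (0.02 over all genes). At an unadjusted p under 0.05 there were 20 genes (44.4%, compared with 25.2% of all genes). In 28 genes both P53-/- 2i libraries exceeded both WT 2i libraries, and in 5 both were lower (29.0% and 24.7% of all genes). With quantile normalization the median was 0.12. A fit of the 2i libraries alone called 1 gene, *Dbf4*.

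In serum, limma called none of the 45 genes, compared with 0.135% of all genes called higher, 0.883% lower and 1.02% in either direction. Of the 45 genes, 19 lay above 0 (42.2%, compared with 52.6% of all genes), and the median log2 fold change was −0.02 (0.02 over all genes). At an unadjusted p under 0.05 there were 6 genes (13.3%, compared with 11.3%): *Rfc4*, *Dbf4*, *Orc4* and *Rpa3* with values above 0 and *Gins2* and *Rpa2* with values below 0. The libraries did not overlap in 10 genes with P53-/- higher and in 16 with P53-/- lower (25.7% and 21.8% of all genes). The difference between the effects of P53 loss in the 2 cultures (the interaction, 2i minus serum) was above 0 for 39 of the 45 genes (86.7%, compared with 50.8%), with a median of 0.26 (0.01 over all genes). limma called none of the 45 interactions and 0.207% of all genes, and at an unadjusted p under 0.05 there were 10 genes (22.2%, compared with 13.1%).

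**Figure D2:**
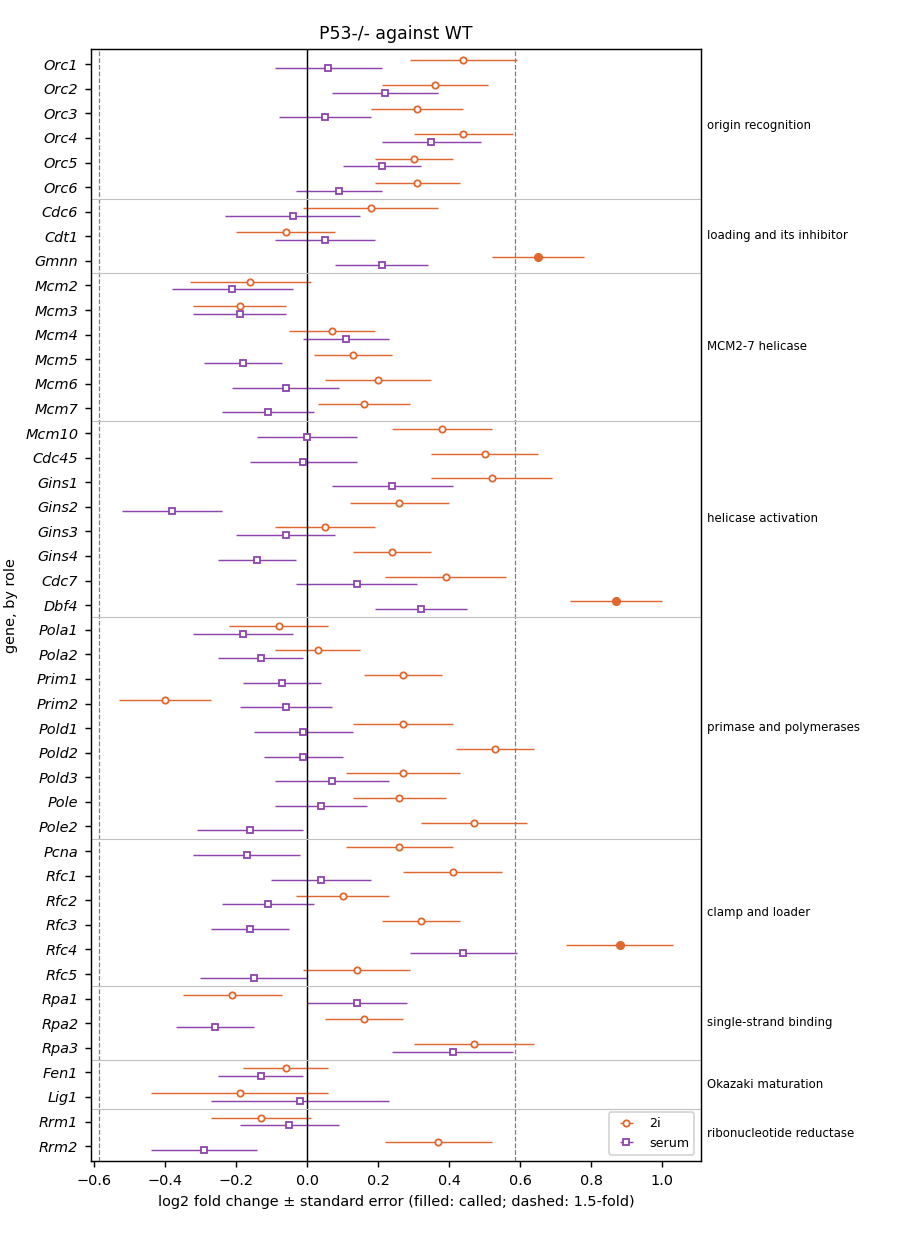
Log2 fold change of P53-/- against WT in 2i (circles) and in serum (squares) for the 45 genes, by role, with the standard error from limma as bars. Filled symbols mark the 3 called genes (*Gmnn*, *Dbf4* and *Rfc4*, all in 2i) and dashed lines a 1.5-fold change, and 36 of the 45 circles lie above 0.

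Between cultures, 17 of the 45 genes were called in WT 2i against WT serum, 2 higher and 15 lower (37.8%, compared with 55.7% of all genes, 27.2% higher and 28.6% lower). At an unadjusted p under 0.05 there were 26 genes (57.8%, compared with 63.8%), and 17 lay above 0 (37.8%, compared with 49.3%). The split depended on the scaling, and with quantile normalization it was 6 higher and 9 lower. It also moved with single libraries, to 4 higher and 12 lower without WT 2i library 1, to 1 and 16 without WT 2i library 2 and to 1 and 17 without WT serum library 2. The median log2 fold change was −0.10 (−0.02 over all genes) and turned to 0.09 with quantile normalization. In P53-/- 2i against P53-/- serum 17 genes were called too, 5 higher and 12 lower (58.2% of all genes, 28.0% higher and 30.1% lower), or 8 higher and 8 lower with quantile normalization, and the median was 0.12 (−0.03 over all genes). Quantile normalization ended the calls of *Gins1*, *Mcm10*, *Mcm4*, *Orc4*, *Pola1* and *Rrm1* in WT and of *Gmnn*, *Orc4*, *Pola1* and *Rfc1* in P53-/-. At an unadjusted p under 0.05 there were 28 genes in P53-/- (62.2%, compared with 66.0%), and 25 lay above 0 (55.6%, compared with 48.9%). The libraries of WT did not overlap in 9 genes with 2i higher and in 25 with 2i lower (40.0% and 41.7% of all genes), and those of P53-/- in 20 and in 19 (39.7% and 42.1%). The comparisons of P53-/- with WT and of 2i with serum share libraries, so that their values are given side by side and not as independent evidence.

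**Figure D3:**
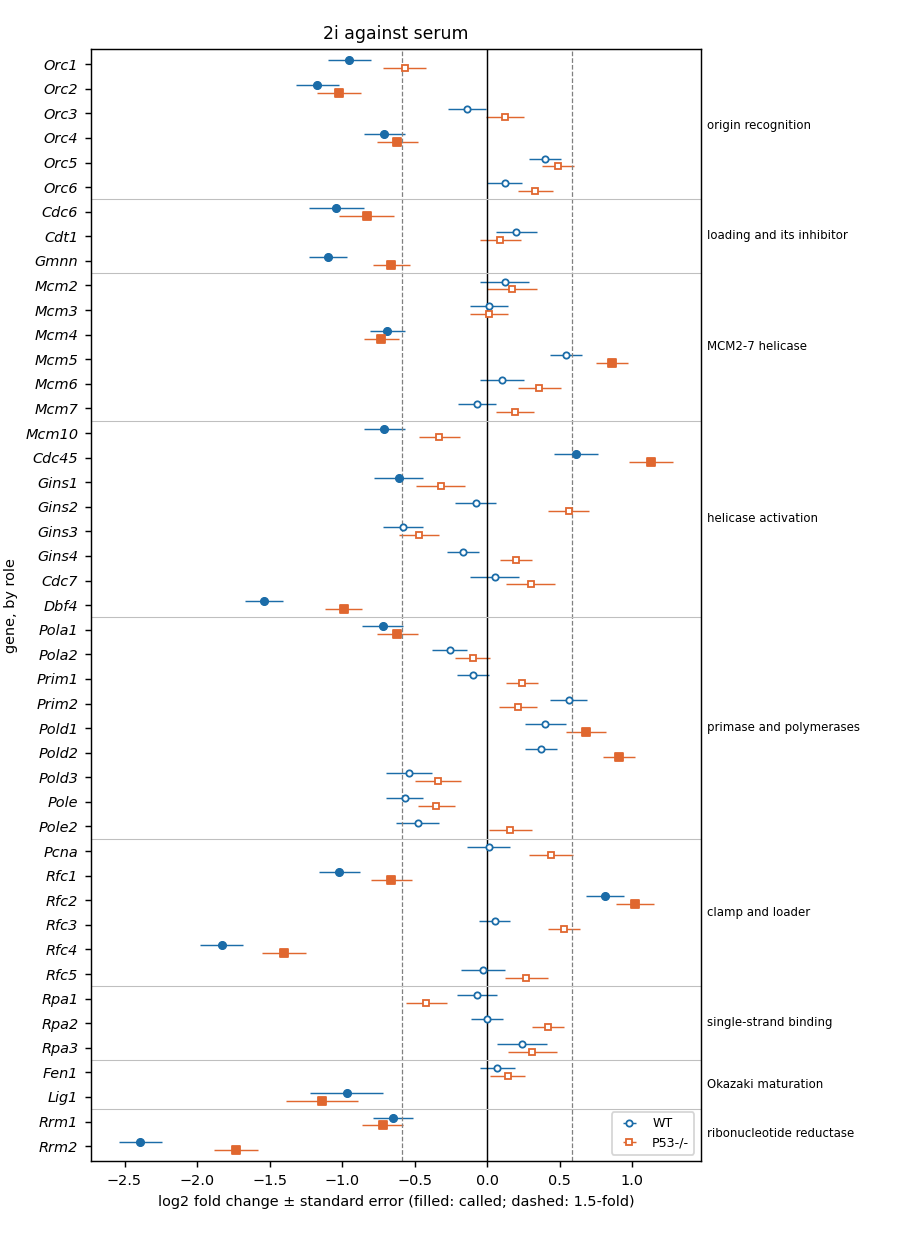
Log2 fold change of 2i against serum in WT (circles) and P53-/- (squares) for the 45 genes, by role, with the standard error from limma as bars. Filled symbols mark the 17 genes called in each genotype and dashed lines a 1.5-fold change, and in WT *Rrm2*, *Rfc4* and *Dbf4* lie farthest to the left.

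The 6 subunits of the origin recognition complex, which marks origins for helicase loading, all had log2 fold changes above 0 in P53-/- 2i, from 0.30 to 0.44, and in each the P53-/- 2i libraries lay above the WT 2i libraries (53% and 29.0% of all genes). All 6 had an unadjusted p under 0.05 (25.2% of all genes did), but none was called (10.3% of all genes were). The lowest adjusted p of limma was 0.104 (*Orc4*). *Orc1*, the largest subunit, was at 20.1 and 23.0 FPKM for WT and at 32.8 and 25.8 for P53-/- in 2i, and at 41.5 and 41.6 for WT and at 46.7 and 40.0 for P53-/- in serum. *Orc4*, another ATPase-fold subunit, was at 18.9 and 21.3 for WT and at 28.1 and 26.7 for P53-/- in 2i, and at 31.1 and 35.1 for WT and at 37.9 and 46.7 for P53-/- in serum. *Orc2*, a core subunit, was at 31.0 and 38.9 for WT and at 49.0 and 40.7 for P53-/- in 2i, and at 75.4 and 81.3 for WT and at 88.9 and 93.0 for P53-/- in serum. In these 3 genes every 2i library lay below every serum library, and the WT 2i libraries were the lowest. They fell in WT 2i against WT serum by 0.95 (*Orc1*), 0.71 (*Orc4*) and 1.17 (*Orc2*) on the log2 scale. In P53-/- 2i against P53-/- serum *Orc2* (−1.02) and *Orc4* (−0.62) fell, and *Orc1* was at −0.57 with an adjusted p of 0.013 in limma, short of a 1.5-fold change. *Orc4* was not called there without P53-/- 2i library 2, without P53-/- serum library 2 or with median-ratio scaling. *Orc5* and *Orc6* had the opposite sign, with log2 fold changes of 0.40 and 0.12 in WT and of 0.49 and 0.33 in P53-/-, and *Orc3* was at 13.1 to 17.2 FPKM in all 8 libraries. In GENCODE M21 the exons of 12 of the 45 genes overlap another gene, 11 of them on the opposite strand, *Orc2*, *Orc4* and *Orc6* included, and how strand was used in counting is not given in the sources used here. *Vps35*, which overlaps *Orc6*, had a log2 fold change of 0.49 in P53-/- 2i, compared with 0.31 for *Orc6*. *Acvr2a* and *Mbd5*, which overlap *Orc4*, had mean FPKM of 4.91 and 1.07. In WT 2i against serum they were at −0.84 and −0.88, compared with −0.71 for *Orc4*. *Nif3l1*, which overlaps *Orc2*, was at 0.11 there, compared with −1.17 for *Orc2*.

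Of the loading factors and their inhibitor, *Gmnn* rose in P53-/- 2i while the CDT1 gene that geminin opposes did not pass the test. *Gmnn* was at 77.5 and 95.4 FPKM for WT and at 133 and 137 for P53-/- in 2i, and at 186 and 182 for WT and at 207 and 218 for P53-/- in serum. The 4 groups did not overlap and stood in that order. In 2i the log2 fold change was 0.65 ± 0.13 (standard error, adjusted p = 0.0308 in limma), or 1.57-fold, and in serum it was 0.21 (adjusted p = 0.586 in limma). The call in 2i was lost without either P53-/- 2i library or without WT 2i library 1, with quantile normalization and in a fit of the 2i libraries alone, with adjusted p up to 0.143. *Cdt1*, the licensing factor itself, was at 50.1 and 59.3 for WT and at 52.3 and 52.5 for P53-/- in 2i, and at 46.2 and 48.5 for WT and at 54.0 and 44.7 for P53-/- in serum. The genotypes overlapped in both cultures, with a log2 fold change of −0.06 in 2i, and both WT 2i libraries lay above both WT serum libraries. *Cdc6*, the ATPase that recruits CDT1 and the helicase, was at 18.4 and 16.5 for WT and at 23.8 and 16.3 for P53-/- in 2i, and at 37.6 and 34.3 for WT and at 38.1 and 32.3 for P53-/- in serum. The genotypes overlapped in both cultures, and every 2i library lay below every serum library. *Gmnn* (−1.10 and −0.66) and *Cdc6* (−1.04 and −0.83) fell in 2i against serum in WT and in P53-/-, the latter not without P53-/- 2i library 2 in P53-/-, and *Cdt1* was at 0.20 and 0.09.

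None of the genes of the MCM2-7 helicase, the motor of the fork, was called between genotypes (10.3% of all genes were in 2i and 1.02% in serum). The log2 fold changes of the helicase genes ran from −0.19 to 0.20 in 2i and from −0.21 to 0.11 in serum, with medians of 0.10 and −0.15. No unadjusted p was under 0.05 in limma in either culture (25.2% and 11.3% of all genes were). *Mcm6* had the largest value in 2i, with 166 and 213 FPKM for WT and 222 and 209 for P53-/- in 2i, and 180 and 170 for WT and 164 and 170 for P53-/- in serum. Its P53-/- 2i and WT 2i libraries overlapped. Although the helicase holds 1 copy of each subunit, the subunits differed between cultures. *Mcm5* was at 226 and 241 for WT and at 259 and 253 for P53-/- in 2i, and at 161 and 159 for WT and at 143 and 138 for P53-/- in serum. *Mcm4* was at 52.0 and 60.9 for WT and at 59.2 and 59.1 for P53-/- in 2i, and at 88.8 and 93.2 for WT and at 99.4 and 96.9 for P53-/- in serum. The 2i libraries were all above the serum libraries for *Mcm5* and all below them for *Mcm4*. *Mcm4* fell in 2i against serum in WT (−0.69) and in P53-/- (−0.73), in WT not without WT 2i library 1. *Mcm5* rose in P53-/- (0.86), and in WT it was at 0.54 with an adjusted p of 0.00385 in limma, short of a 1.5-fold change. *Mcm2*, *Mcm3*, *Mcm6* and *Mcm7* lay between −0.07 and 0.36 in both genotypes. *Mcm7* shares its locus with 3 microRNA genes and overlaps *Cops6* and *Ap4m1* on the opposite strand.

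Among the 8 genes of helicase activation, all had log2 fold changes above 0 in P53-/- 2i (53% of all genes did), with a median of 0.38, and in 7 of them the P53-/- 2i libraries lay above the WT 2i libraries (29.0% of all genes). *Dbf4*, which encodes the activating subunit of CDC7 kinase, was at 26.3 and 26.9 FPKM for WT and at 51.0 and 46.3 for P53-/- in 2i, and at 78.6 and 76.8 for WT and at 108 and 86.6 for P53-/- in serum. The 4 groups did not overlap and stood in that order. It rose in P53-/- 2i by 0.87 ± 0.13 on the log2 scale (standard error, adjusted p = 0.0127 in limma), or 1.82-fold, and was called under all 14 alternatives with adjusted p from 0.00693 to 0.0892. In serum its value was 0.32 (adjusted p = 0.434 in limma), and the interaction was 0.55 with an adjusted p of 0.294. *Dbf4* fell in 2i against serum, by 1.54 in WT and 0.99 in P53-/- on the log2 scale. *Cdc7*, the kinase itself, ran from 21.3 to 33.6 FPKM over the 8 libraries, with log2 fold changes of 0.39 in P53-/- 2i, 0.05 in WT 2i against serum and 0.30 in P53-/- 2i against serum, none of them called.

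*Cdc45*, which joins MCM2-7 and GINS in the active helicase, was at 44.1 and 48.3 FPKM for WT and at 75.0 and 57.0 for P53-/- in 2i, and at 30.8 and 29.4 for WT and at 29.9 and 29.9 for P53-/- in serum. The 2i groups stood apart from each other and above the serum groups, which overlapped. Its log2 fold change in P53-/- 2i was 0.50, with an adjusted p of 0.0826 in limma but under 1.5-fold, and it was called without P53-/- 2i library 2. It rose in 2i against serum in WT (0.61) and in P53-/- (1.13), in WT not without WT 2i library 2 or without WT serum library 2. *Mcm10*, which helps the helicase to open DNA, was at 36.4 and 43.2 for WT and at 57.3 and 46.4 for P53-/- in 2i, and at 67.4 and 62.3 for WT and at 65.8 and 64.1 for P53-/- in serum. It fell in 2i against serum in WT (−0.71) and was at −0.33 in P53-/-. The 4 GINS subunits, which bind as 1 complex, all lay above 0 in P53-/- 2i against WT 2i (0.05 to 0.52), and none was called. In WT 2i against serum all 4 lay below 0 (−0.61 to −0.08), and *Gins1* alone was called. *Gins3* was at −0.58 there with an adjusted p of 0.00701 in limma, just short of a 1.5-fold change. *Gins1* was at 31.4 and 42.6 for WT and at 55.0 and 50 for P53-/- in 2i, and at 59.2 and 52.3 for WT and at 61.8 and 69.8 for P53-/- in serum. It fell in 2i against serum in WT (−0.61), though not without WT 2i library 1, without WT serum library 1 or with median-ratio scaling, and its value in P53-/- 2i against WT 2i was 0.52 (adjusted p = 0.103 in limma), called without WT 2i library 2. *Gins2* was at 53.6 and 53.5 for WT and at 65.5 and 63.1 for P53-/- in 2i, and at 53.6 and 60.2 for WT and at 38.5 and 49.6 for P53-/- in serum. Its P53-/- libraries thus lay above WT in 2i and below WT in serum, with an interaction of 0.64 (adjusted p = 0.259 in limma). *Gins3* was the lowest member in every group, at 8.27 to 13.6, and *Gins4* stayed between 57.6 and 71.5.

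Of the 9 primase and polymerase genes, 7 lay above 0 in P53-/- 2i (53% of all genes did). None was called in either culture (10.3% of all genes were in 2i and 1.02% in serum). In limma 4 in 2i and 0 in serum had an unadjusted p under 0.05 (25.2% and 11.3% of all genes). *Pold2*, an accessory subunit of polymerase delta, was at 60.8 and 59.4 FPKM for WT and at 81.7 and 92.4 for P53-/- in 2i, and at 44.7 and 48.2 for WT and at 46.4 and 45.8 for P53-/- in serum. Both P53-/- 2i libraries stood above all others. The log2 fold change was 0.53 in 2i (adjusted p = 0.0362 in limma, under 1.5-fold, and called without P53-/- 2i library 1) and −0.01 in serum, with an interaction of 0.54 (adjusted p = 0.234 in limma). *Pole2*, an accessory subunit of polymerase epsilon, was similar in 2i at 0.47 (adjusted p = 0.0999 in limma), while *Pole*, the catalytic subunit, was at 0.26. *Prim2*, the large subunit of primase, had the lowest value of the 45 genes in 2i, −0.40 (adjusted p = 0.111 in limma), with 43.2 and 54.3 FPKM for WT and 37.6 and 35.7 for P53-/-. *Prim1*, the catalytic subunit of the same primase, was at 63.1 and 60.5 in WT 2i and at 77.4 and 71.6 in P53-/- 2i. The libraries thus stood apart in opposite directions for the primase subunits.

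The catalytic subunits of polymerases alpha and delta differed between cultures. *Pola1*, the catalytic subunit of polymerase alpha, was at 36.3 and 44.0 FPKM for WT and at 37.4 and 38.5 for P53-/- in 2i, and at 66.1 and 66.0 for WT and at 64.5 and 52.5 for P53-/- in serum. It fell in 2i against serum in WT (−0.72) and in P53-/- (−0.62), in WT not without WT 2i library 1 and in P53-/- not without P53-/- serum library 1 or with median-ratio scaling. *Pold1*, the catalytic subunit of polymerase delta, was at 29.0 and 24.7 for WT and at 34.4 and 30.3 for P53-/- in 2i, and at 20.7 and 19.8 for WT and at 18.6 and 21.7 for P53-/- in serum. It rose in 2i against serum in P53-/- (0.68), though not without P53-/- serum library 1, and its value in WT was 0.40. *Pold2* rose as well in P53-/- (0.91) and was at 0.37 in WT. *Pold3*, *Pole* and *Pole2* were at −0.54, −0.57 and −0.48 in WT, with adjusted p of 0.0203, 0.00541 and 0.0256 in limma but under 1.5-fold.

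In the clamp and its loader all 6 genes lay above 0 in P53-/- 2i (53% of all genes did), and *Rfc4* rose (4.36% of all genes were called higher). *Rfc4*, a small subunit of the loader, was at 16.4 and 18.0 FPKM for WT and at 30.1 and 33.2 for P53-/- in 2i, and at 54.0 and 70.2 for WT and at 81.2 and 85.6 for P53-/- in serum. The 4 groups did not overlap, and the mean of P53-/- serum was 4.85 times that of WT 2i, a range exceeded among the 45 genes by *Rrm2* alone. In 2i the log2 fold change was 0.88 ± 0.15 (standard error, adjusted p = 0.0178 in limma), or 1.83-fold, and it was not called without P53-/- 2i library 2 or in a fit of the 2i libraries alone (adjusted p up to 0.109). In serum it was 0.44 with an adjusted p of 0.324 in limma, and the interaction was 0.44 with an adjusted p of 0.426. *Rfc4* fell in 2i against serum by 1.83 in WT and 1.40 in P53-/- on the log2 scale. Its exons overlap those of *Eif4a2* on the opposite strand, whose mean FPKM was 402 for WT and 397 for P53-/- in 2i, and 283 for WT and 295 for P53-/- in serum. *Eif4a2* thus had a log2 fold change of −0.02 in P53-/- 2i and of 0.51 in WT 2i against serum, the latter in the opposite direction to *Rfc4*.

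The other loader subunits differed in their patterns. *Rfc2*, another small subunit, was at 91.9 and 75.6 FPKM for WT and at 88.6 and 90.3 for P53-/- in 2i, and at 49.7 and 45.6 for WT and at 46.2 and 42.1 for P53-/- in serum. It rose in 2i against serum in WT (0.81) and in P53-/- (1.02), and the genotypes overlapped in both cultures. *Rfc1*, the large subunit, was at 26.4 and 24.7 for WT and at 30.8 and 37.4 for P53-/- in 2i, and at 53.4 and 50.8 for WT and at 58.0 and 49.4 for P53-/- in serum. Its groups stood in the same order as those of *Rfc4*, with P53-/- above WT in 2i (0.41, adjusted p = 0.121 in limma) and overlapping genotypes in serum. *Rfc1* fell in 2i against serum in WT (−1.02) and in P53-/- (−0.66), in P53-/- not without P53-/- 2i library 1 or P53-/- serum library 1. *Rfc3* (0.05 in WT and 0.53 in P53-/-) and *Rfc5* (−0.03 and 0.27) were not called. *Pcna*, the sliding clamp and itself a known P53 target, was at 184 and 236 for WT and at 252 and 248 for P53-/- in 2i, and at 217 and 198 for WT and at 186 and 182 for P53-/- in serum. P53-/- lay above WT in 2i and below it in serum, with log2 fold changes of 0.26 and −0.17, neither of them called. *Pcna* has pseudogenes that can share its reads.

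Of the 3 subunits of RPA, which coats single-stranded DNA, the smallest, *Rpa3*, had the largest value in 2i. *Rpa3* was at 179 and 149 FPKM for WT and at 240 and 213 for P53-/- in 2i, and at 123 and 155 for WT and at 166 and 201 for P53-/- in serum. P53-/- lay above WT in both cultures, with log2 fold changes of 0.47 and 0.41 and adjusted p of 0.139 and 0.436 in limma. *Rpa1*, the large subunit, was at −0.21 in 2i and 0.14 in serum, and *Rpa2* was at 0.16 and −0.26. None of the 3 was called between cultures in either genotype.

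*Fen1*, the nuclease that trims Okazaki fragments, ran from 71.8 to 89.9 FPKM over the 8 libraries and was called in no comparison. *Lig1*, the ligase that joins the fragments, was at 21.7 and 33.7 for WT and at 25.2 and 22.1 for P53-/- in 2i, and at 56.8 and 49.3 for WT and at 42.5 and 64.3 for P53-/- in serum. Every 2i library lay below every serum library, and the genotypes overlapped. *Lig1* fell in 2i against serum in WT (−0.97) and in P53-/- (−1.14), and its value in P53-/- 2i against WT 2i was −0.19 (adjusted p = 0.684 in limma).

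Ribonucleotide reductase supplies deoxyribonucleotides, and its small subunit *Rrm2* had the largest difference between cultures among the 45 genes. *Rrm2* was at 52.5 and 68.4 FPKM for WT and at 81.6 and 73.1 for P53-/- in 2i, and at 315 and 315 for WT and at 254 and 260 for P53-/- in serum. The 4 groups did not overlap, and P53-/- lay above WT in 2i and below it in serum. *Rrm2* fell in 2i against serum by 2.39 in WT (standard error 0.15, adjusted p = 2.85e-05 in limma) and by 1.73 in P53-/- on the log2 scale. Its values for P53-/- against WT were 0.37 in 2i and −0.29 in serum, with adjusted p of 0.173 and 0.495 in limma, and the interaction was 0.66 (adjusted p = 0.26). *Rrm1*, the large subunit, was at 50.9 and 55.6 for WT and at 48.4 and 49.1 for P53-/- in 2i, and at 85.7 and 81.3 for WT and at 71.5 and 90.8 for P53-/- in serum. It fell in 2i against serum by 0.65 in WT and by 0.72 in P53-/-, in P53-/- not without P53-/- serum library 2, and the genotypes were at −0.13 in 2i and −0.05 in serum.

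**Figure D4:**
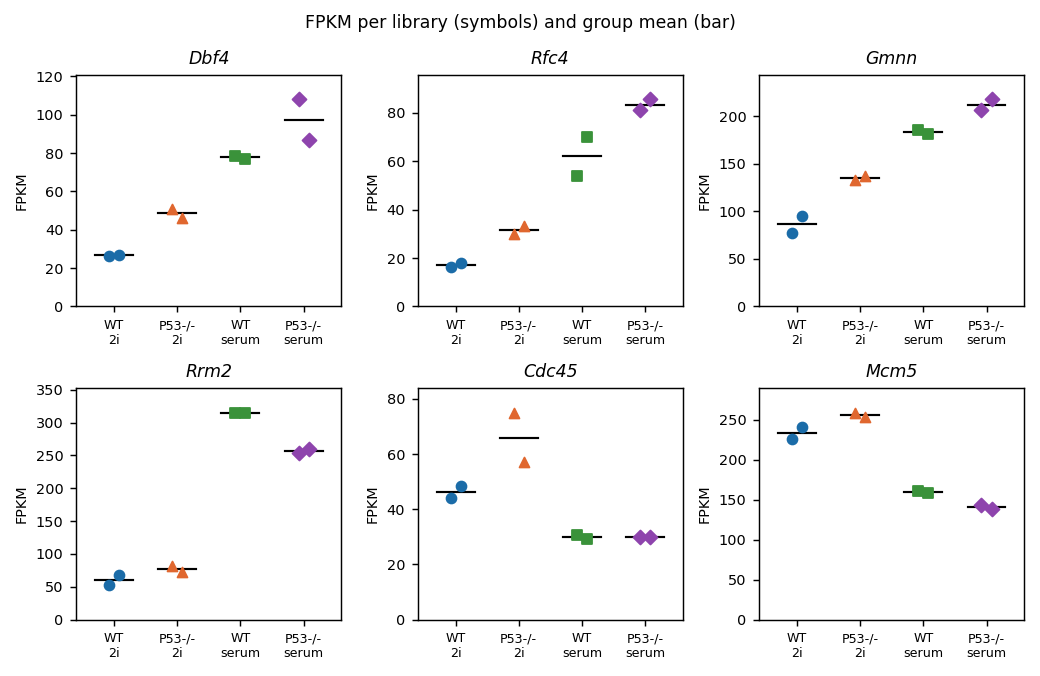
FPKM of *Dbf4*, *Rfc4*, *Gmnn*, *Rrm2*, *Cdc45* and *Mcm5* in the 8 libraries, with 1 symbol per library and a bar at the mean of each group of 2. *Dbf4*, *Rfc4* and *Gmnn* stand in the order WT 2i, P53-/- 2i, WT serum and P53-/- serum from low to high, while *Cdc45* and *Mcm5* are higher in 2i than in serum.

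Ratios within 5 pairs of partner genes are given as a description. The pairs were chosen after their values were seen, and the ratios are FPKM of 1 gene over FPKM of the other in the same library, so that no scaling of libraries enters them. *Gmnn* over *Cdt1* was 1.55 and 1.61 for WT and 2.54 and 2.61 for P53-/- in 2i, and 4.03 and 3.76 for WT and 3.84 and 4.88 for P53-/- in serum. *Dbf4* over *Cdc7* was 0.927 and 1.26 for WT and 1.65 and 1.38 for P53-/- in 2i, and 3.28 and 3.26 for WT and 3.66 and 3.73 for P53-/- in serum. In both pairs P53-/- 2i lay between WT 2i and the serum groups without overlap. *Rrm2* over *Rrm1* was 1.03 and 1.23 for WT and 1.69 and 1.49 for P53-/- in 2i, and 3.68 and 3.88 for WT and 3.55 and 2.87 for P53-/- in serum. *Rfc4* over *Rfc2* was 0.178 and 0.238 for WT and 0.34 and 0.368 for P53-/- in 2i, and 1.09 and 1.54 for WT and 1.76 and 2.03 for P53-/- in serum. These ratios were also lowest in WT 2i, with P53-/- 2i next. *Mcm5* over *Mcm4* went the other way between cultures, at 3.96 to 4.37 in the 2i libraries and 1.43 to 1.81 in the serum libraries. The genotypes overlapped in 2i and stood apart in serum, at 1.81 and 1.71 for WT and 1.44 and 1.43 for P53-/-.

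**Figure D5:**
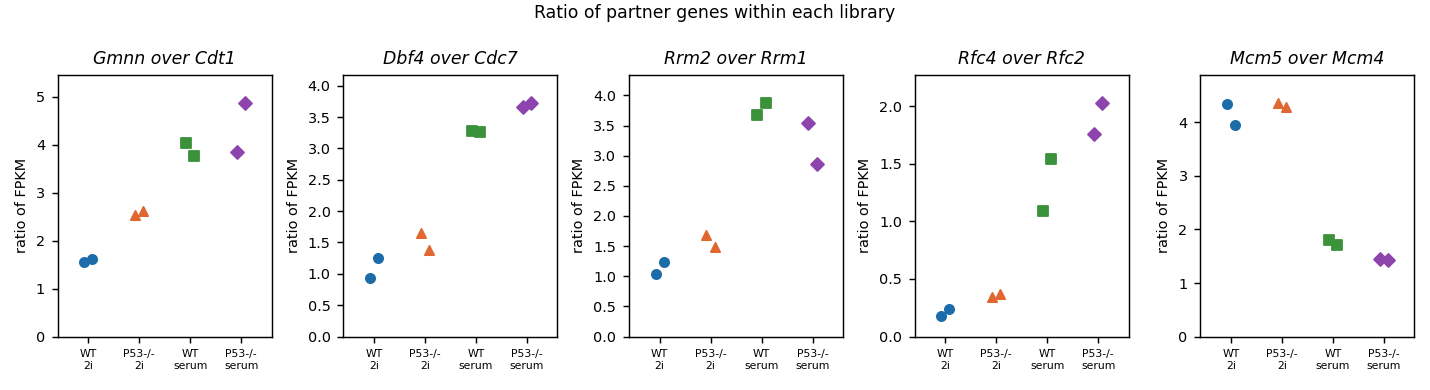
Ratio of FPKM of 5 pairs of partner genes within each of the 8 libraries, with 1 symbol per library and a panel per pair. In the first 4 panels the WT 2i libraries are the lowest and P53-/- 2i lies between them and the serum libraries, and *Mcm5* over *Mcm4* is higher in 2i.

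The genes around this machinery were read from lists. Of 16 genes of CDT1 turnover and licensing control, 6 rose in P53-/- 2i (*Ccna2*, *Ccne2*, *Cdc20*, *Cdc25a*, *Cks1b* and *Kmt5a*) and *Fzr1* fell, with a median log2 fold change of 0.39. Of all genes tested, 4.36% were called higher and 5.97% lower in this comparison. In serum none was called (1.02% of all genes were), and limma gave 1 of them an unadjusted p under 0.05 (11.3% of all genes). *Ccna2*, the S-phase cyclin that drives CDK2, was at 28.8 and 30.4 FPKM for WT and at 61.5 and 59.2 for P53-/- in 2i, and at 96.9 and 94.0 for WT and at 88.0 and 85.8 for P53-/- in serum. Its log2 fold change was 1.03 in 2i (standard error 0.10, adjusted p = 0.0022 in limma) and −0.14 in serum, and its interaction of 1.16 was called (limma adjusted p = 0.0435). *Cdc25a*, the phosphatase that activates CDK2, rose likewise by 1.03 in 2i, *Ccne2*, an E-type cyclin, by 0.83, and *Kmt5a*, a histone methyltransferase degraded in S phase, by 0.81. *Fzr1*, the CDH1 activator of the anaphase-promoting complex in G1, was at −0.60 with an adjusted p of 0.0972 in limma. In WT 2i against WT serum 12 of the 16 genes fell (75.0%, compared with 28.6% of all genes) and none rose, with a median of −1.55.

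Other parts of replication were covered by 3 further lists. Of 40 other replication factors, *Top1*, a topoisomerase, rose in P53-/- 2i (0.60) and *Polk*, a translesion polymerase, fell (−1.90), with a median of 0.15. That is 2.5% of the list in each direction, below the 4.36% and 5.97% of all genes. In serum *Polk* (−1.83) and *Pold4*, the smallest subunit of polymerase delta (−1.53), fell (5.0% of the list, compared with 0.883% of all genes called lower), with a median of −0.08. Of 14 genes of nucleotide supply, *Dut*, which removes dUTP, rose in P53-/- 2i (0.78), and of 10 checkpoint genes *Chek1*, the checkpoint kinase, rose by 0.92 and *Cdc25c*, a mitotic phosphatase, by 0.69. The medians of these lists were 0.16 and 0.23, and none of their genes was called in serum, where 1 of the 14 and 0 of the 10 had an unadjusted p under 0.05 in limma (11.3% of all genes). In WT 2i against WT serum 5 rose and 18 fell of the 40 replication factors, 2 rose and 3 fell of the 14 genes of nucleotide supply, and 1 rose and 6 fell of the 10 checkpoint genes. In either direction this was 57.5% of the replication factors, 35.7% of nucleotide supply and 70.0% of the checkpoint genes, compared with 55.7% of all genes (27.2% higher and 28.6% lower).

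All cells had been sorted in G1, but the sum of G2/M markers was, like *Dbf4*, *Rfc4* and *Gmnn*, lowest in WT 2i and next lowest in P53-/- 2i. The summed FPKM of 20 G2/M markers was 471 to 522 for WT and 657 to 761 for P53-/- in 2i, and 1290 to 1300 for WT and 1300 to 1340 for P53-/- in serum. In P53-/- 2i against WT 2i 8 of the 20 rose and all 20 lay above 0, with a median of 0.47, and in WT 2i against WT serum 19 of the 20 fell (4.36% of all genes tested were called higher in the first comparison and 28.6% lower in the second). Single markers departed from the order of the sum: *Cdk1*, the mitotic kinase, had its lowest mean in WT serum (25.0 FPKM, compared with 27.0 in WT 2i), and *Ccnb2*, a B-type cyclin, its highest in P53-/- 2i (74.2 FPKM). The summed FPKM of 10 replication-dependent histone genes, which are transcribed in S phase, was 6170 to 6270 for WT and 5220 to 6460 for P53-/- in 2i, and 9890 to 15600 for WT and 7770 to 10400 for P53-/- in serum. In 2i the genotypes overlapped in this sum. None of the 10 histone genes was called between genotypes in either culture (10.3% of all genes were in 2i and 1.02% in serum). In limma 0 in 2i and 3 in serum had an unadjusted p under 0.05 (25.2% and 11.3% of all genes). In serum 9 of the 10 lay below 0, with a median log2 fold change of −0.45. In 7 of them both P53-/- serum libraries lay below both WT serum libraries (21.8% of all genes). In 2i against serum 7 of the 10 fell in both WT and P53-/- (28.6% and 30.1% of all genes). None of these markers is among the 45 genes, while *Cdc20* and *Top2a* also stand in the lists above. The part of cells outside G1, or of cells at different points of G1, in the differences of the 45 genes was not tested.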

How the data were processed

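The authors deposited 1 table of FPKM values for 24881 gene symbols in 8 columns. The submitters' processing notes name mm9, STAR, Cufflinks and DESeq2 without versions or roles, and how strand was counted is not given in the sources used here. FPKM values were used as deposited, without rescaling. Column names give genotype and culture but no replicate number. The other 4 of the 12 samples of the series (P21-/- 2i ESCs and their WT) were not analysed here.

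limma 3.58.1 in R 4.3.3 was run on log2(FPKM + 0.1), so that fold changes of low genes are understated, for genes with a mean of at least 0.5 FPKM, in 1 fit of the 4 groups with a trend. p values were adjusted over all 12572 genes by the Benjamini-Hochberg method. Calls needed an adjusted p under 0.1 and more than a 1.5-fold change, as in the study. An exact two-sided permutation test of 2 libraries against 2 cannot go below p = 0.33, so none was run. On simulated data of 12255 genes for P53-/- against WT in 2i, limma called 52 of 100 genes with a log2 change of 1, 80 of 100 with a log2 change of 2, and 14 unchanged genes. No difference between cultures was simulated. The log2 fold changes of the 45 genes in 2i ran from −0.4 to 0.88, and recovery of changes of that size was not tested.

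The 45 genes, the lists and the markers were chosen with earlier results of these data known, so no test was made over a list. Values are given for every library for genes called in any comparison and for the largest value of each role in P53-/- 2i, and genes of other lists are named where called in a P53 comparison. Symbols were matched to GENCODE M21 (GRCm38, 24425 of 24881), used for gene types, transcript lengths and overlaps only. Promoters came from RefSeq (GRCm38.p6), and coordinates are those of that build, not of mm9. Figures were drawn with Python 3.11.15, pandas 2.3.3 and matplotlib 3.10.9. Alternatives were pseudocounts of 1 and 0.01, no filter or a mean of at least 1 FPKM, median-ratio and quantile scaling, no small RNA genes, the compared groups only, no trend, an adjusted p under 0.05, and each library left out.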

Additional observations from a re-analysis of the deposited data

Results flagged for a closer look

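In 9 of the 45 genes (20.0%, compared with 956 of 12572 genes tested or 7.6%) the P53-/- libraries lay on 1 side of the WT libraries in 2i and on the opposite side in serum. These genes were singled out by that separation of the libraries, and limma called none of the 9 interactions, whose log2 values follow. P53-/- was higher in 2i and lower in serum for *Mcm5* (0.32), *Gins2* (0.64), *Gins4* (0.38), *Prim1* (0.34), *Pcna* (0.43), *Rfc3* (0.48), *Rpa2* (0.42) and *Rrm2* (0.66). For *Rpa1* it was lower in 2i and higher in serum (−0.35). Adjusted p of the interaction in limma ran from 0.259 (*Gins2*) to 0.494 (*Rpa1*). Groups of 2 libraries were too small to look for single libraries that stand apart.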

How the results depend on the processing

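The total counts of called genes among the 45, both directions together, stayed within 1.5 times the reported count, except that a fit of the 2i libraries alone called 1 gene instead of 3 in P53-/- against WT 2i. With each library left out in turn, 2 to 4 genes were called in that comparison, 0 in serum and in the interaction each time, 16 to 18 in WT 2i against serum and 14 to 18 in P53-/- 2i against serum, with the lone library of a group assumed to vary like the others. By direction the counts in WT 2i against serum, reported as 2 higher and 15 lower, ran from 1 to 4 and from 12 to 17, and quantile normalization gave 6 and 9 there and 8 and 8, instead of 5 and 12, in P53-/- 2i against serum. The medians ran from 0.23 to 0.27, from −0.05 to 0.02, from 0.21 to 0.28, from −0.19 to −0.10 and from 0.00 to 0.15 in the same order. The last was 0.06 without P53-/- 2i library 1 and −0.00 without P53-/- serum library 2. Quantile normalization moved the medians to 0.12, −0.08, 0.18, 0.09 and 0.20, and median-ratio scaling moved that of P53-/- 2i against serum to 0.17. The cause was not tested. No gene called among the 45 changed direction under any alternative run. The calls kept were 35 of 42 in P53-/- against WT 2i, 225 of 238 in WT 2i against serum and 224 of 238 in P53-/- 2i against serum, counting each gene under each alternative. No paired analysis was possible because the columns carry no replicate numbers. With 2 libraries per group and no counts, counting error has no interval here, and values that missed the threshold are not shown to be equal.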
